A study of Mus musculus with 2 samples.

Results

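Endothelial cells line the blood vessels that run between the acini, ducts and islets of the pancreas. The 10 genes Pecam1, Tek, Kdr, Cdh5, Flt1, Tie1, Eng, Emcn, Vwf and Esam, which are widely used to mark these cells, were examined in whole pancreas of adult mice. They were chosen by name as genes of vascular endothelium, with signals and ratios from these arrays already known, so every value below describes the pools and none is a test. All 10 had at least 1 probe set among the 18193 genes represented on the array. The RNA came from male C57BL/6J offspring, sampled as adults at 10 weeks, in 2 groups that differed in what their mothers ate. In the threonine-deficient group the dams had a diet lacking enough of this essential amino acid between embryonic days 12.5 and 14.5, and in the control group they had the control diet over those days. Both groups shared the strain, the sex, weaning at 3 weeks and control diet afterwards, and neither was treated after birth. Each group was 1 pool of pancreatic RNA on 1 array. How many animals each pool held is not stated in the labels, so no spread between animals could be measured.

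Vascular endothelial growth factors act on endothelial cells through the receptor tyrosine kinases encoded by Kdr and Flt1, and angiopoietins act through the receptor encoded by Tek, whose relative Tie1 modulates it. Cdh5, Pecam1 and Esam hold neighbouring endothelial cells together, Eng serves as a co-receptor of bone morphogenetic protein and TGF-beta signals, and Emcn and Vwf encode a surface mucin and a secreted clotting protein. In the pancreas, islets have a dense network of fenestrated capillaries, and islet cells are a known source of VEGF-A.

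Signals were linear MAS5 intensities, and the arrays had the same trimmed mean signal, so a ratio is relative to the rest of that array. The 60th percentile of signal was taken on each array, and values under the larger of them, 264.9, were treated as too dim to order and set to that floor. Log2 ratios run threonine-deficient over control, and a gene was read by its brightest probe set unless stated. Acinar genes marked both samples as pancreas, since all 8 of those measured were above the floor, with signals of 12748 to 262788 in the threonine-deficient pool and 15390 to 242235 in the control pool. The median signal of all probe sets was 183.8 in the threonine-deficient and 164.7 in the control pool.

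Endothelial markers had higher signals in the threonine-deficient pool wherever the brightest probe set could be measured on both arrays. This held for 6 genes, Pecam1, Tek, Cdh5, Eng, Emcn and Esam, whose median log2 ratio was 0.31 and whose ratios ran from 0.18 for Esam to 0.57 for Pecam1. Among all 8834 genes above the floor on both arrays, 48% had a ratio above 0 and the median was −0.02. Of these 6 members 3 were at least 1.2-fold higher, against 19.7% of those genes, and 0 were 2-fold higher, against 1.28% of all 10758 genes above the floor on at least 1 array, which are the genes tested referred to below. Kdr and Flt1 were above the floor in the threonine-deficient pool only, which forces a positive ratio. Tie1 and Vwf were below the floor on both arrays and gave no ratio.

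**Figure D1:**
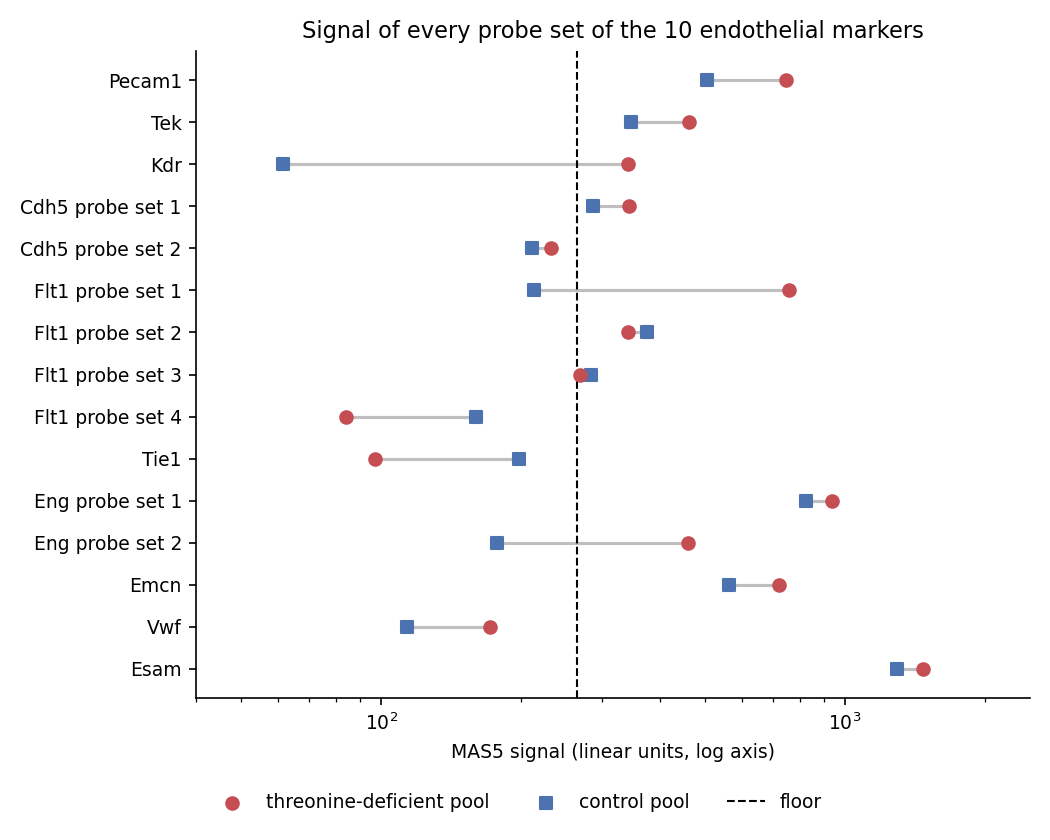
MAS5 signal of the 15 probe sets of the 10 endothelial markers (log axis, 1 row per probe set, brightest first within a gene). Red circles are the threonine-deficient pool, blue squares the control pool, 1 array each, and the dashed line is the floor of 264.9. The red point lies to the right in 11 rows and to the left in the 4 rows of Tie1 and of Flt1 probe sets 2, 3 and 4.

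Among the junction and adhesion genes, Pecam1, an immunoglobulin-family molecule of endothelial contacts that platelets and leukocytes also carry, had a signal of 747 in the threonine-deficient pool, against 504 in the control pool. This was a 1.48-fold difference, with a log2 ratio of 0.57, and 7.62% of all genes tested had a ratio at least as high. The scaled median absolute deviation of the ratios of the 500 genes nearest in signal, used here as a local spread in place of replicates, was 0.41 for Pecam1. Pecam1 was the only one of the 6 members measured on both arrays whose ratio exceeded its local spread.

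Cdh5, which encodes VE-cadherin, the cadherin of endothelial adherens junctions, had a signal of 342 in the threonine-deficient pool and 287 in the control pool, a log2 ratio of 0.25 beside a local spread of 0.41. Its second probe set was below the floor on both arrays, at 232 in the threonine-deficient and 212 in the control pool. Esam, an adhesion molecule of endothelial tight junctions, had 1472 in the threonine-deficient pool and 1296 in the control pool. Its log2 ratio of 0.18 was smaller than the local spread of 0.29, and 29.1% of all genes tested were as high. Both genes were thus higher in the threonine-deficient pool by less than genes of like signal commonly varied between these arrays.

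For the angiopoietin receptors, Tek, also called Tie2, had a signal of 462 in the threonine-deficient pool, against 345 in the control pool. The log2 ratio of 0.42, or 1.34-fold, lay inside a local spread of 0.61, the widest of the 8 members above the floor. Tie1, the related receptor without a well-defined ligand of its own, had 97.2 in the threonine-deficient pool and 198 in the control pool. Of the 10 genes, only Tie1 had the lower signal in the threonine-deficient pool in its brightest probe set, but both readings were below the floor.

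The receptors of vascular endothelial growth factors were the least settled of the markers. Kdr, or VEGFR2, the main signalling receptor for VEGF-A, had a signal of 341 in the threonine-deficient pool and 61.4 in the control pool. Read against the floor it was at least 1.29-fold higher, and its size beyond that bound was not measurable because the control value was dim. It had 1 probe set, so no other reading was at hand.

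Flt1, or VEGFR1, which binds VEGF-A, VEGF-B and placental growth factor and also gives a soluble form, had 4 probe sets that went different ways. In the brightest the signal was 755 in the threonine-deficient pool and 213 in the control pool, at least 2.85-fold higher. The next probe set had 340 in the threonine-deficient pool and 373 in the control pool, a log2 ratio of −0.13. Another had 268 in the threonine-deficient pool, against 283 in the control pool, a log2 ratio of −0.08. The dimmest was below the floor on both arrays, at 84.1 in the threonine-deficient pool and 160 in the control pool. Read against the floor, Flt1 was 1 marker at least 2-fold apart, where 2.16% of all genes were, and this rested on 1 of its 4 probe sets. The bound for Kdr leaves a 2-fold difference possible there too. The files do not say which Flt1 transcripts each probe set reads.

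Eng, or endoglin, had a signal of 936 in the threonine-deficient pool and 824 in the control pool in its brightest probe set, a log2 ratio of 0.18 beside a local spread of 0.34. Its other probe set had 459 in the threonine-deficient pool, against 178 in the control pool, at least 1.73-fold higher because the control value was below the floor. Both readings of Eng were higher in the threonine-deficient pool, by unequal amounts. Emcn, which encodes endomucin, a sialomucin of capillary and venous endothelium, had 722 in the threonine-deficient pool, against 562 in the control pool. Its log2 ratio was 0.36, or 1.29-fold, with a local spread of 0.40. Vwf, von Willebrand factor, which endothelial cells and platelets store and release for clotting, was below the floor at 172 in the threonine-deficient pool and 114 in the control pool.

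**Figure D2:**
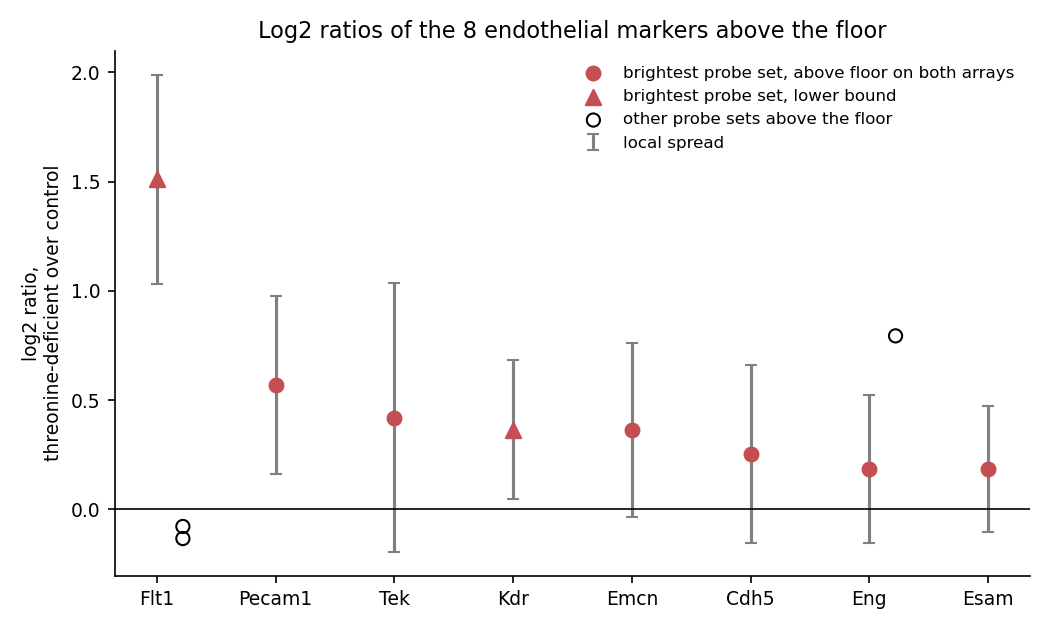
Log2 ratio of the threonine-deficient over the control pool for the 8 endothelial markers above the floor on at least 1 array. Filled symbols are the brightest probe set (triangles are lower bounds, for Flt1 and Kdr), open circles are other probe sets above the floor, and bars show plus and minus the local spread of genes of like signal, which is not a replicate error. The bars of Tek, Emcn, Cdh5, Eng and Esam cross 0, and 2 open circles of Flt1 lie below 0.

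Over all 15 probe sets of the members, 8 were above the floor on both arrays, of which 6 had a ratio above 0 and 2, both of Flt1, a ratio below 0. Another 3 were above the floor in the threonine-deficient pool only, and 4 were below it on both. Pecam1, Tek, Kdr, Tie1, Emcn, Vwf and Esam had 1 probe set each, so a repeat reading existed for 3 members and, above the floor, for Eng and Flt1 only. Repeat readings of a gene often differed in the sign of the ratio at these signals. Across 2269 genes with a pair of probe sets in the range of mean signals that the members span (301 to 1381), 49.5% of pairs had ratios of the same sign, and the standard deviation of a single reading, from the differences within pairs, was 0.45 in log2 units. The share of the same sign is about what unrelated signs would give. The scaled median absolute deviation of the ratios of all genes tested in that range was 0.46. Genes are not independent replicates. The error from pairs covers probe and hybridisation noise and any difference in the transcripts read, and no variation between animals.

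The background also depends on signal. Among the 6520 genes tested within that range of mean signal, 53.8% had a ratio above 0, 31.0% were 1.2-fold or more higher and 2.10% were 2-fold or more higher, and their median log2 ratio was 0.04. All 8 members above the floor had ratios above 0, a count that Kdr and Flt1 could not have lowered, against 50.1% of all genes tested. With these 2 included, 5 members were at least 1.2-fold higher, against 22.5% of all genes tested, and 0 were 1.2-fold lower, against 20.9%. Cdh5, at 1.19-fold, lay just short of that size. In bulk RNA a change in the number of endothelial cells and a change in RNA per cell cannot be told apart.

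**Figure D3:**
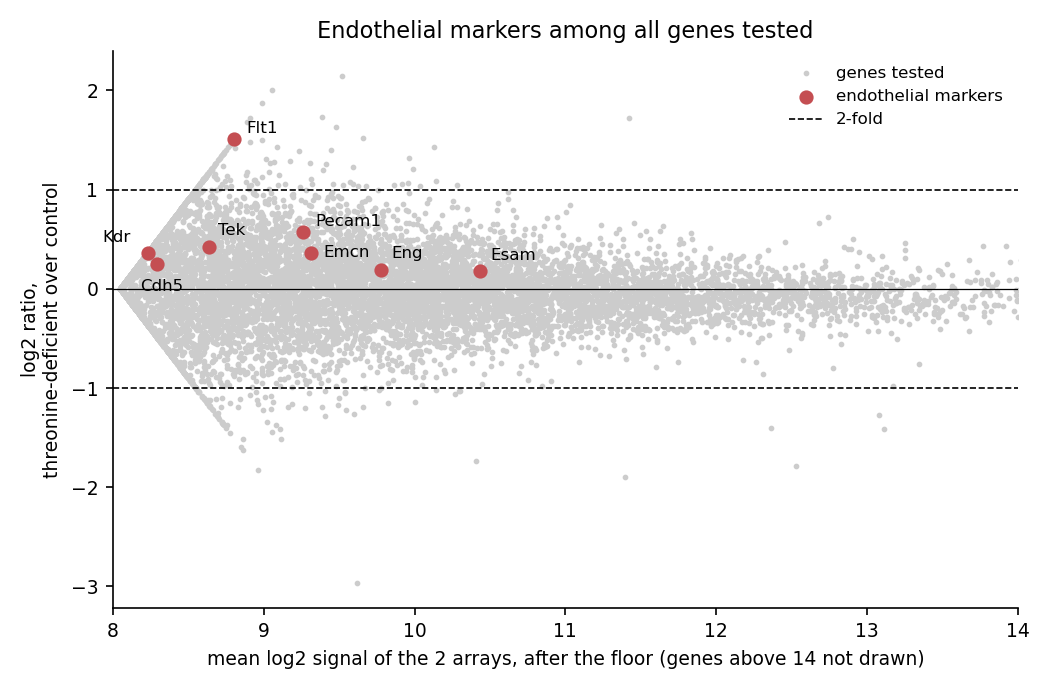
Log2 ratio of the threonine-deficient over the control pool against mean log2 signal of both arrays after the floor, for all genes tested (grey, 1 point per gene, those of mean log2 signal above 14 not drawn) and for the endothelial markers (red, named). Dashed lines mark 2-fold, and the slanted left edges are genes at the floor on 1 array. The 8 markers lie above 0, all but Flt1 inside the 2-fold lines, and Flt1 and Kdr lie on the upper slanted edge.

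Promoter sequences are shown for the members at least 1.2-fold higher in their only probe set, where RefSeq (GRCm38.p6) had one, which are Tek, Kdr and Emcn. Each runs 5′ to 3′ on the strand of the gene, from 250 bases before to 50 after its start. Tek lies on the plus strand at chr4:94739039-94739338, Kdr on the minus strand at chr5:75978406-75978705 and Emcn on the plus strand at chr3:137340828-137341127. Capitals mark matches, on either strand, to CAGGAA or CCGGAA, spellings of the core bound by ETS factors, which are known regulators of endothelial genes, and to AGATAA, a spelling of the GATA site.
Tek: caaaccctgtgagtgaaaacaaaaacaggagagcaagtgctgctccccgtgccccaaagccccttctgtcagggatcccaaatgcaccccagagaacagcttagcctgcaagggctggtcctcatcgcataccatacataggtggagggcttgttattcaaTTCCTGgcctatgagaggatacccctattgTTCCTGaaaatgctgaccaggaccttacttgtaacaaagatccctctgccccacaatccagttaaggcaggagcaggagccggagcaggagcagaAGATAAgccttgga
Kdr: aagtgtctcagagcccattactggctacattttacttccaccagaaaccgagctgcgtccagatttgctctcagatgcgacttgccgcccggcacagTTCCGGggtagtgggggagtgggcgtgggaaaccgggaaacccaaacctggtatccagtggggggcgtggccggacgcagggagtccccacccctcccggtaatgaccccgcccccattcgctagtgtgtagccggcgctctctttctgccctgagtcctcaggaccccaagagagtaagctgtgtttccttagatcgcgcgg
Emcn: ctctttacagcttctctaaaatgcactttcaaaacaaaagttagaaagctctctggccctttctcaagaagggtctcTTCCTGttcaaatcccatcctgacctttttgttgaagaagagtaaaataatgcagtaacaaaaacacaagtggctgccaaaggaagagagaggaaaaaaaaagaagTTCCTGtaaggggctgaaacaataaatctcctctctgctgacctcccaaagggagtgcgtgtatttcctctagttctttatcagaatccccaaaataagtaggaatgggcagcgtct
A promoter was matched for 6 of the 10 members. Of these 6, 5 held either ETS spelling, against 41.4% of 32851 promoters of the same length, and 1, Tek, held AGATAA, against 11.2%. In Tek the ETS matches began, in the printed orientation, 89 and 59 bases before the start, in Kdr the match began 153 bases before it, and in Emcn they began 173 and 67 bases before it. The searched spellings do not overlap in these promoters. A match describes the letters and is not a measured binding site, and the arrays do not bear on it.

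Ligands and partners of the VEGF receptors had ratios on both sides of 0, and those of Tek above the floor had ratios above 0 in their brightest probe sets. Vegfb, a ligand of Flt1, had 1625 in the threonine-deficient pool, against 1039 in the control pool, a log2 ratio of 0.64. Pgf, which encodes placental growth factor, had 990 in the threonine-deficient pool and 1129 in the control pool. Vegfa, the main ligand of Kdr, was split between its probe sets. One had 912 in the threonine-deficient pool and 964 in the control pool, and the other had 975 in the threonine-deficient pool and 384 in the control pool. Nrp1, a co-receptor of VEGF-A, had a log2 ratio of −0.37 in its brightest probe set, −0.15 in another and 1.03 in another. Of 6 VEGF ligands and co-receptors above the floor, 3 had ratios above 0 and 3 below, with a median of 0.06.

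Angpt1, the activating ligand of Tek, had a log2 ratio of 0.69, with 806 in the threonine-deficient pool and 499 in the control pool. Its other probe set went the opposite way, with 55.0 in the threonine-deficient pool, below the floor, and 336 in the control pool. Angpt2, the context-dependent antagonist of Tek, was below the floor on both arrays. Ptprb, the phosphatase VE-PTP that acts on Tek and VE-cadherin, had log2 ratios of 0.09 and −0.50 in its probe sets above the floor. Angptl1, an angiopoietin-like secreted protein, had 1134 in the threonine-deficient pool and 872 in the control pool, a log2 ratio of 0.38, with 0.77 in another probe set. The 3 genes of this list above the floor, Angpt1, Ptprb and Angptl1, had ratios above 0 in their brightest probe sets, with a median of 0.38. Acvrl1, or ALK1, the receptor that works with endoglin, had 324 in the threonine-deficient pool and 280 in the control pool, a log2 ratio of 0.21. The list of BMP and TGF-beta receptors and effectors around endoglin had 8 of 13 members above 0 and a median of 0.09, and its brightest genes, Smad4, Bmpr2 and Tgfbr1, had −0.12, −0.16 and −0.28. The other probe sets of Smad4 had −0.07 and 0.28.

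Markers of endothelium outside the 10 genes did not follow them in direction. Of 22 further endothelial markers, 20 were on the array under 1 symbol and 16 were above the floor, 6 of them with ratios above 0 and 10 below. Their median log2 ratio was −0.08, against 0.36 for the 8 members above the floor, and over genes above the floor on both arrays it was −0.03 for 15 of these markers, against 0.31 for the 6 members. The difference between these lists was not tested, since the members were chosen with their values known. Plvap, which forms the diaphragms of fenestrated capillaries, had 1612 in the threonine-deficient pool and 1486 in the control pool, a log2 ratio of 0.12. Thbd, thrombomodulin, had 0.06 and Ramp2, a subunit of the adrenomedullin receptor, had 0.14. The lowest ratios of the list, named after their values were seen, were those of Cd34, a sialomucin also of progenitor cells, with 418 in the threonine-deficient pool and 674 in the control pool (−0.69), Mmrn2 (−0.51) and Robo4 (−0.47). The median over the 4 probe sets of Mmrn2 was −0.04. In this and later medians over probe sets, a probe set below the floor on both arrays counted as 0, which is not a measured ratio. None of the 16 was 1.2-fold higher, where 22.5% of all genes tested were, and 7 were 1.2-fold lower, where 20.9% were. The 4 below the floor were Cldn5, Icam2, Ecscr and Esm1.

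Endothelial transcription factors had a median log2 ratio of −0.13, with 5 of 13 above 0 and 8 below. Of the 10 above the floor on both arrays, 2 were above 0 and 8 below. The others above 0 were above the floor in the threonine-deficient pool only, which forces a positive ratio. Epas1, the hypoxia-inducible factor HIF-2alpha, had a log2 ratio of −0.20, Nr2f2, a factor of venous identity, −0.13, and Foxo1, a target of insulin and growth factor signalling, −0.47, with −0.99 and a lower bound of 0.38 in other probe sets. In their brightest probe sets the endothelial ETS factors Erg and Fli1 and the factor Tal1 were below the floor on both arrays. The median over the 2 probe sets of Fli1 was 0.04, so its other probe set passed the floor on an array. Ets1, an ETS factor named after its value was seen, had 1051 in the threonine-deficient pool and 805 in the control pool. Its log2 ratio was 0.39, with a median of 0.28 over 4 probe sets. Gata2, named because it was the only factor of the list at least 2-fold apart and so chosen after its value was seen, had 1439 in the threonine-deficient pool and 687 in the control pool. The median log2 ratio over its 2 probe sets was 0.53, with the other, below the floor on both arrays, counted as 0. Notch genes of vessels had 4 of 8 above 0, or 3 of 7 above the floor on both arrays, and a median of −0.08. Notch1, a receptor in arterial specification, had −0.22, and its ligand genes Jag1 and Jag2 had 0.07 and 0.10, with −0.43 in another probe set of Jag1. The target gene Hey1, named after its value was seen, was at least 2.14-fold higher. Partners of VE-cadherin and PECAM1 had 4 of 10 above 0 and a median of −0.08. Above the floor on both arrays, 4 of them were above 0 and 4 below. Ctnnb1, the beta-catenin that binds VE-cadherin, had 0.09 in its brightest probe set and −0.12 and −0.25 in the others. Ctnna1 had −0.12 and Ptpn11 −0.07. The members of that list at least 2-fold apart, likewise named after their values were seen, were the junctional adhesion molecule gene F11r, at least 3.02-fold lower, and the p120 catenin gene Ctnnd1, 2.06-fold higher. The median log2 ratio over probe sets was −0.84 for F11r (2 probe sets) and 0 for Ctnnd1 (3 probe sets). The 0 of Ctnnd1 stands for a probe set below the floor on both arrays, so it is not a repeat reading that disagrees.

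Lists around the vessel wall went both ways. The vessel basement membrane had 5 of 8 above 0 and a median of 0.23, with the nidogen gene Nid1 at 0.59 and Col4a2 at −0.10. The collagen IV gene Col4a1 had 0.12, with −0.02 in its other probe set. Pericyte and vascular smooth muscle markers had 2 of 6 above 0, or 1 of 5 above the floor on both arrays, and a median of −0.08. This median turned to 0.46, the ratio of the gene Rgs5 alone, when probe sets that may read several transcripts (ending in _s_at, _x_at or _a_at) were left out. The probe sets read for Acta2, Notch3 and Abcc9 end this way, so few genes remained. The pericyte gene Rgs5 had 2078 in the threonine-deficient pool and 1516 in the control pool, with ratios of 0.46, 0.52, 0.15 and 0.07 in its 4 probe sets, while the smooth muscle actin gene Acta2 had −0.01. Rgs5 was thus higher in the threonine-deficient pool in every reading. Tagln and Notch3, named after their values were seen, had the lowest ratios of this list, −0.91 and −0.63. The median over the 2 probe sets of Notch3 was −0.31, with the other, below the floor on both arrays, counted as 0. Lymphatic markers had 3 above 0 of 3 above the floor, against 48% of all genes above the floor on both arrays. These were the hyaluronan receptor gene Lyve1 at 0.64, Pdpn at 0.68 and the VEGF-C receptor gene Flt4 at 0.21, with an upper bound of −0.01 in another probe set of Flt4. Prox1, Reln and Mmrn1 were below the floor on both arrays in their brightest probe sets. Leukocyte adhesion molecules of activated endothelium had 3 of 4 above 0, but of the 2 above the floor on both arrays 1 was above 0 and 1 below. The P-selectin gene Selp was at least 1.82-fold higher, and the chemokine-binding receptor gene Ackr1 had 0.51. Vcam1 had −0.22, with lower bounds of 0.36 and 0.31 in its other probe sets. Sele and Icam1 were below the floor on both arrays.

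**Figure D4:**
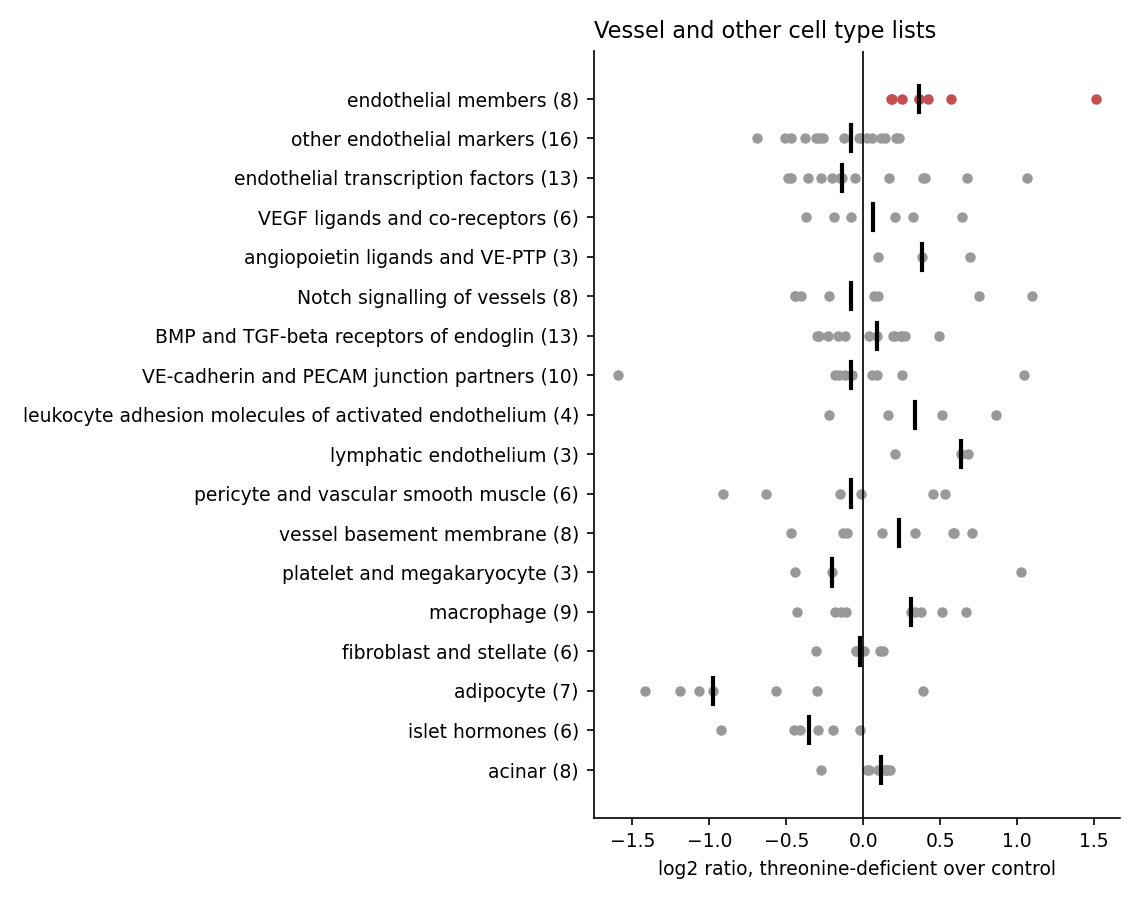
Log2 ratios of the threonine-deficient over the control pool for the members above the floor (points, bounds included) of each list with at least 3 such members, with the number in brackets and the median as a black bar. The endothelial markers (red) lie right of 0, the further endothelial markers on both sides of it, and 6 of the 7 adipocyte markers left of it.

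Markers of cell types that share some of these genes, or that fill the tissue around vessels, were read on the same arrays. Pecam1, Esam and Vwf are also platelet genes, and of 7 platelet genes on the array 3 were above the floor and Itga2b, the platelet integrin, was below it. Their median log2 ratio was −0.20. Pf4 had −0.20 and Gp9 −0.44, and Gp1bb, below the floor in the control pool, was at least 2.03-fold higher. The summed signal of the 7 was 1758 in the threonine-deficient pool and 1541 in the control pool, of which Gp1bb gave 539 in the threonine-deficient pool and 236 in the control pool. Macrophage genes, 9 of 9 above the floor, had 5 ratios above 0, a median of 0.31 and a summed signal of 10089 in the threonine-deficient pool and 9850 in the control pool. Their median was −0.13 with the floor at percentile 75, and the brightest members were Lyz2 (−0.43), Csf1r (0.51) and C1qb (−0.19). The other probe sets of C1qb had −0.03 and 0.17. Ptprc, the pan-leukocyte gene, had 918 in the threonine-deficient pool and 685 in the control pool, while the T cell genes Cd3e and Cd3d and the B cell gene Cd79a were below the floor. Adipocyte markers had 6 of 7 ratios below 0, and the summed signal of 8 was 23505 in the threonine-deficient pool and 42856 in the control pool. Of the erythroid genes, which bear on blood content, 2 of 3 on the array were above the floor, with Alas2 at 706 in the threonine-deficient pool and 511 in the control pool, Slc4a1 with a lower bound of 0.58 for its log2 ratio and Hba-a1 below the floor, and the summed signal was 1137 in the threonine-deficient pool and 777 in the control pool. The islet hormone genes had 0 of 6 ratios above 0 and a median of −0.35, with a summed signal of 142685 in the threonine-deficient pool and 173512 in the control pool. Acinar genes had 7 of 8 ratios above 0 and a median of 0.12. Beside these counts, 50.1% of all genes tested had a ratio above 0. Fibroblast and stellate cell genes had 3 of 6 ratios above 0 and a median of −0.02. The part of each of these cell types in the endothelial values was not tested.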

How the data were processed

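Pancreatic RNA pools of threonine-deficient and control offspring were each measured on 1 Affymetrix mouse array. The deposited values were linear signal intensities per probe set made by the authors with MAS5, per the submitters' processing notes; its version and a genome build are not given in the sources used here. The mean signal, trimmed by 2% at each end, was 500.0 on both arrays. Probe sets with 1 symbol in the platform annotation (34945) were named through gene identifiers against RefSeq GRCm38.p6, which matched 34741. Each gene was read by the probe set of highest mean log2 signal. Signals were raised to a floor, and log2 ratios were computed with Python 3.11.15, numpy 2.4.6 and pandas 2.3.3. Genes above the floor on at least 1 array were counted at 2-fold and at 1.2-fold, the second chosen after the values were seen. As a local spread, the median absolute deviation, scaled to a standard deviation, was taken over the 500 genes nearest in signal.

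The members and lists were chosen with earlier results of these data known. All 10 members were named whatever their values, and the naming rule for the other lists took the 3 brightest members above the floor, of which the text gives those that bear on vessels, with Vegfa, Vegfb, Pgf, Angpt1, Angpt2, Acvrl1 and Ptprb. Genes named outside that rule, as below the floor or after their values were seen, are given as such. With 1 array per group no test between diets was possible, and the number of arrays limits the precision. The 8 alternatives concerned scaling, the floor and the choice of probe set. The steps were tested on simulated data, with changes planted that were larger than the ratios of most members and in genes brighter than most of them. That test does not cover small ratios at the signals of these markers.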

Additional observations from a re-analysis of the deposited data

How the results depend on the processing

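No paired analysis was possible because each group had 1 array. The median log2 ratio of the endothelial markers was 0.36 as reported and ranged from 0.25, with a pseudocount equal to the floor, to 0.39 with no floor, which brought in all 10 genes. The 8 markers as reported include Kdr and Flt1, whose ratios above 0 are forced by the floor. Over the 6 markers above the floor on both arrays the median was 0.31, and all 6 had ratios above 0. The number of markers with a ratio above 0 was 8 of 8 as reported, against 50.1% of all genes. It was 9 of 10 with no floor (51.6% of all genes) and 8 of 9 with the floor at percentile 50 (51.3%). With the median over probe sets it was 7 of 8 (42.8%), where Flt1 had a log2 ratio of −0.039 with its dimmest probe set counted as 0. The number was 5 of 5 with the floor at percentile 75 (46.9% of all genes). Without probe sets of a sharing suffix (_s_at, _x_at or _a_at) it was also 5 of 5 (51%), and both settings leave fewer genes to count. The number at least 2-fold apart, 1 as reported, was 3 with no floor (Kdr and Flt1 higher, Tie1 lower), 0 with the floor at percentile 75 and 0 with the median over probe sets. Of all genes 24.8% were 2-fold apart with no floor, 0.625% at percentile 75 and 0.959% with the median over probe sets. Kdr had log2 ratios from 0.30 to 2.47 across 7 alternatives, the highest with no floor. Pecam1 (0.40 to 0.57), Tek (0.25 to 0.42), Cdh5, Eng, Emcn and Esam were above 0 under every alternative that measured them. The median of the further endothelial markers ranged from −0.13 to 0.01. The median of the pericyte and smooth muscle list turned from −0.08 to 0.46 without probe sets of a sharing suffix, where few genes remained and 0.46 is the ratio of Rgs5. The median of the macrophage list turned from 0.31 to −0.13 with the floor at percentile 75. The lymphatic median fell from 0.64 to 0.22 with the floor at percentile 50. The adipocyte median went from −0.98 to −0.57 with the median over probe sets. The low signals and the lack of replicates limit these values.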
